A study of Homo sapiens with 12 samples.

Results

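The genes described here carry an interferon signal from the cell surface to the promoter: the receptor chains IFNAR1, IFNAR2 and IFNGR1, the kinases JAK1 and JAK2, the transcription factor STAT2 and the interferon regulatory factors IRF1, IRF7 and IRF9. They were chosen by name, with earlier results of these data known. For each, the probe set whose annotation gives that symbol alone was taken, or, among several, whichever had the highest mean across all 12 arrays. That gave 8 of the 9 genes, each from 1 probe set, out of 18404 named genes on the array. No probe set carried STAT2 alone in the annotation used, so STAT2 was not analysed here.

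The measurements are 12 expression arrays of total RNA from the melanoma lines A375 and A2058, both established from human tumours and both labelled BRAF V600E, a mutation that keeps the BRAF kinase active. Each line was measured with DMSO and with vemurafenib, which makes 4 groups of 3 arrays. Vemurafenib is an inhibitor of mutant BRAF and DMSO is its solvent; the labels give 1 µM for 72 h, renewed every 24 h, against the same volume of DMSO. This treatment text stands on all 12 samples but names only A375p, which is also the source name of the A375 samples, so for A2058 the dose and time rest on the text being shared. Each line is a single line, and nothing in the labels says whether the 3 arrays of a group came from separate cultures, so p-values measure only the spread between these samples. The study asked how the 2 lines respond to the inhibitor, and the comparisons below ask whether the genes that receive and pass on an interferon signal were part of that response.

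Type I interferons bind a receptor made of IFNAR1 and IFNAR2, whose kinases are TYK2 and JAK1; interferon gamma binds IFNGR1 with IFNGR2, served by JAK1 and JAK2. The kinases phosphorylate STAT proteins. STAT2 and IRF9 are parts of the complex ISGF3, which binds the interferon stimulated response element (ISRE), while the gamma route acts through the gamma activated site (GAS). IRF1 and IRF7 are transcription factors whose own genes are interferon inducible, and IRF7 drives the interferon alpha genes. In melanoma cells the pathway is known for its control of antigen presentation and for its place in the response to immune therapy.

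Values are the deposited log2 expression values, on which 1 unit is a doubling. They ran from 3.24 to 13.08, with array medians of 5.19 to 5.3 and lower quartiles of 4.37 to 4.41. Changes are differences of group means ± SE from a limma fit over all 18404 genes and 12 arrays. A gene was called, and is said to have risen or fallen, at a Benjamini-Hochberg adjusted p under 0.05. Replicates correlated at r = 0.9978 to 0.9989 across genes, except that replicate 1 of A375 with vemurafenib reached only 0.9939 and 0.9941 against its fellow replicates. Results that rest on this array are given with and without it. The melanocyte lineage factor SOX10 was high in every group, with means of 9.21 to 9.53, but the melanocyte antigen MLANA stood at 4.44 in A375 with DMSO, near the lower quartile. The leukocyte gene PTPRC stood at 4.15 to 4.17 in all 4 groups, below the lower quartile of the arrays.

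In A375 with vemurafenib, the 3 interferon regulatory factors among the members rose: IRF9 4.18-fold, IRF7 2.04-fold and IRF1 1.52-fold. JAK1 rose 1.15-fold and IFNAR2 fell 1.32-fold. In A2058 IRF9 rose most, 1.64-fold, followed by JAK2 (1.6-fold), JAK1 (1.42-fold) and IFNGR1 (1.32-fold), and IFNAR2 fell 1.57-fold. IRF9, JAK1 and IFNAR2 were therefore called in the same direction in both lines. In each line 4 of the 8 genes rose and 1 fell, which is 62.5% of them called. Over all genes 37% were called in A375 (17.7% up and 19.3% down) and 27.1% in A2058 (14.6% up and 12.5% down). In each line these 5 were also the genes whose treated and DMSO arrays did not overlap, as was so for 43.6% of all genes in A375 and 40.6% in A2058. The median change of the 8 genes was 0.18 in A375 and 0.24 in A2058, with 0.0042 and 0.0063 over all genes; their median size of change without regard to sign was 0.3 and 0.45, with 0.102 and 0.077 over all genes. In RNA pooled from many cells, more transcript per cell and more cells with the transcript cannot be told apart.

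**Figure D1:**
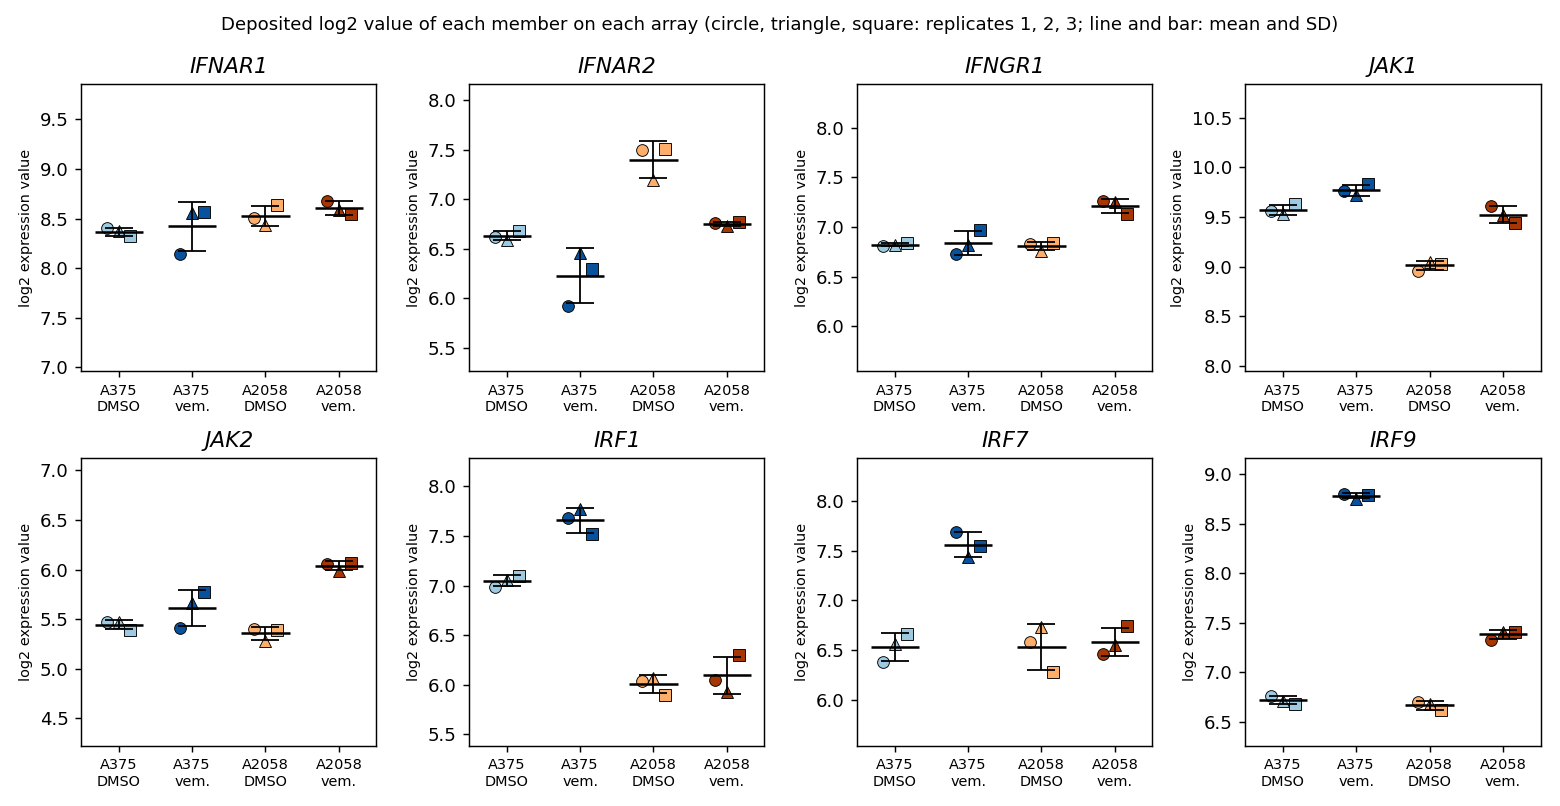
Deposited log2 expression value (vertical axis, each panel spanning the same number of log2 units) of each gene on each of the 12 arrays, by line and treatment; symbols mark replicates 1, 2 and 3, and the line and bar give the mean and SD of 3 arrays. IRF9, JAK1 and IFNAR2 separate the treated arrays from the DMSO arrays in both lines, with IFNAR2 lower on the treated ones. IRF7 and IRF1 do so in A375, and JAK2 and IFNGR1 do so in A2058.

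Of IRF1, IRF7 and IRF9, it was IRF9, the DNA-binding subunit of ISGF3, that had the largest change in both lines. In A375 its values were 6.76, 6.71 and 6.68 with DMSO and 8.8, 8.75 and 8.79 with vemurafenib. In A2058 they were 6.7, 6.68 and 6.62 with DMSO and 7.33, 7.41 and 7.41 with vemurafenib. The treated arrays lay above the DMSO arrays in both lines, while the DMSO arrays of the lines overlapped. The rise was 2.06 ± 0.042 in A375 (limma, adjusted p = 9.77e-13), larger than the change of 98.9% of all genes, and 0.72 ± 0.042 in A2058 (adjusted p = 5e-08), larger than 96.3%. The rise in A375 exceeded that in A2058 by 1.35 ± 0.059 (adjusted p = 3.45e-09). Without replicate 1 of A375 with vemurafenib, the rise in A375 was 2.05 ± 0.045 (adjusted p = 1.2e-12).

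IRF7, which drives interferon alpha genes, rose in A375 alone of the lines by this test. Its A375 values were 6.38, 6.56 and 6.66 with DMSO and 7.69, 7.44 and 7.55 with vemurafenib, with no overlap. The A2058 values of 6.58, 6.73 and 6.28 with DMSO and 6.46, 6.55 and 6.74 with vemurafenib overlapped. The change was 1.03 ± 0.11 in A375 (limma, adjusted p = 1e-05) and 0.06 ± 0.11 in A2058 (adjusted p = 0.831, 95% interval -0.19 to 0.31). The difference of these responses was 0.97 ± 0.16 (adjusted p = 0.000495). In order of level, A375 with vemurafenib stood above the other 3 groups, whose ranges overlapped each other.

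IRF1, a transcriptional activator induced early by interferon gamma, differed between the lines before any treatment. With DMSO its values were 6.99, 7.06 and 7.1 in A375 and 6.04, 6.07 and 5.9 in A2058. With vemurafenib they were 7.68, 7.77 and 7.52 in A375 and 6.05, 5.93 and 6.3 in A2058. All A375 arrays lay above all A2058 arrays, and within A375 the treated arrays lay above the DMSO arrays. The change with vemurafenib was 0.61 ± 0.09 in A375 (limma, adjusted p = 0.000129) and 0.09 ± 0.09 in A2058 (adjusted p = 0.599, 95% interval -0.11 to 0.29), and these responses differed by 0.52 ± 0.13 (adjusted p = 0.00783). Without replicate 1 of A375 with vemurafenib, the A375 changes were 0.96 for IRF7, 0.6 for IRF1 and 0.2 for JAK1, and each was called.

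The promoters of IRF1 and IRF9 are shown because, among the 6 measured genes with an entry in the RefSeq promoter table, they were the ones with a match to the GAS letters TTCNNNGAA in the 250 bases before the start of transcription (the letters read the same on both strands). The ISRE letters, which are GAAA, any 2 bases and GAAA again, were searched on both strands and matched in none of the 13 entries of these 6 genes. IFNAR2 and IRF7 had no entry, so their promoters were not searched for either motif. Over all 35116 promoter entries of that length, 6.57% held the GAS letters and 3.02% the ISRE letters. A match is a description of the sequence, not a measured binding site, and no match says only that these letters are not in this window. The sequences are from RefSeq, build GRCh38.p14, 5′ to 3′ on the gene's strand, and end at the last base before the start of transcription; capitals mark the GAS letters. The IRF1 stretch is chr5:132490774-132490913 on the minus strand and the IRF9 stretch chr14:24161125-24161264 on the plus strand.
IRF1: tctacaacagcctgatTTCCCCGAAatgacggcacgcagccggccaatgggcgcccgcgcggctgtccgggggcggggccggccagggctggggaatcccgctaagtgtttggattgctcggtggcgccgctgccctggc
IRF9: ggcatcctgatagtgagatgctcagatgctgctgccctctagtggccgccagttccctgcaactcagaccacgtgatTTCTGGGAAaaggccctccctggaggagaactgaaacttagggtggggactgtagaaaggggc
The match lies 124 to 116 bases before the start in IRF1 and 63 to 55 bases before it in IRF9. Both genes rose in A375, as did IRF7, whose promoter was not searched. In A2058 the rise of IRF9 passed the test and the change of IRF1 did not. Whether the GAS letters had a part in these changes was not tested.

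**Figure D2:**
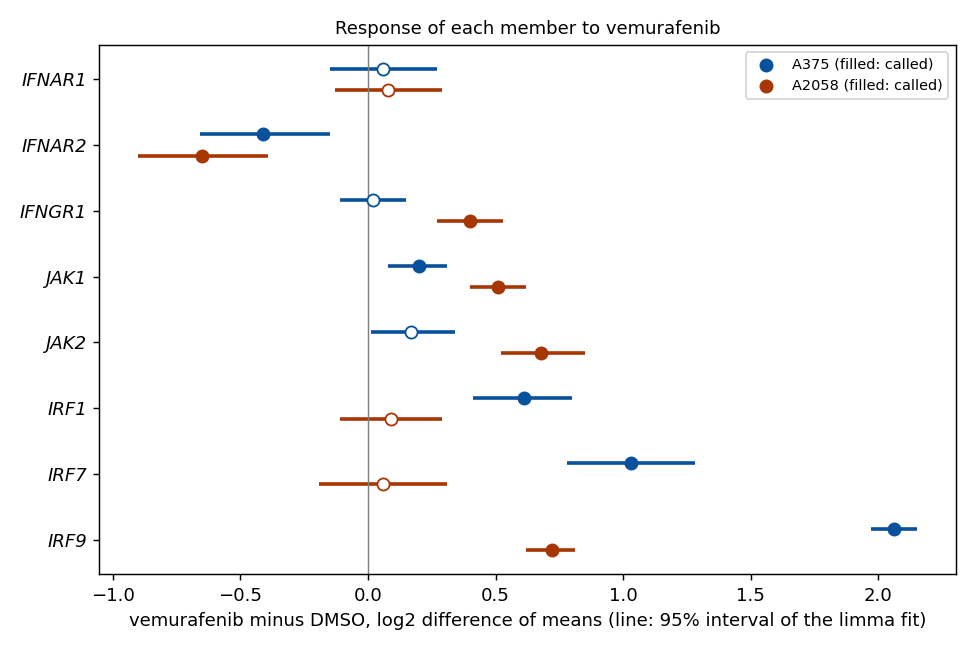
Change of each gene with vemurafenib (horizontal axis, log2 difference of means of 3 arrays each) in A375 and A2058, with 95% intervals of the limma fit; filled points passed an adjusted p of 0.05. IRF1, IRF7 and IRF9 lie further right in A375, and IFNGR1, JAK1 and JAK2 lie further right in A2058.

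The kinases had the opposite balance between the lines. JAK1, which serves both the type I and the gamma receptor, was at 9.56, 9.53 and 9.63 in A375 with DMSO and 9.76, 9.72 and 9.83 with vemurafenib. In A2058 it was at 8.96, 9.05 and 9.03 with DMSO and 9.61, 9.52 and 9.44 with vemurafenib. Treated arrays lay above DMSO arrays in both lines, and the treated A2058 arrays reached the range of the A375 DMSO arrays. JAK1 rose by 0.2 ± 0.052 in A375 (limma, adjusted p = 0.00866) and by 0.51 ± 0.052 in A2058 (adjusted p = 8.82e-06), and the difference was -0.31 ± 0.074 (A375 minus A2058, adjusted p = 0.00619).

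JAK2, the kinase of the gamma receptor's second chain, lay close to the array median. Its values in A2058 were 5.4, 5.28 and 5.39 with DMSO and 6.06, 5.99 and 6.07 with vemurafenib, with no overlap. In A375 they were 5.47, 5.47 and 5.39 with DMSO and 5.41, 5.66 and 5.77 with vemurafenib, where replicate 1 fell within the DMSO range. JAK2 rose by 0.68 ± 0.076 in A2058 (limma, adjusted p = 1.87e-05). The change in A375 was 0.17 ± 0.076 (adjusted p = 0.105), and 0.27 without replicate 1 of A375 with vemurafenib, where it passed (adjusted p = 0.00088). The response in A375 was lower than that in A2058 by a difference of -0.51 ± 0.11 (adjusted p = 0.00277).

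Of the receptor chains, IFNAR2, the chain that binds type I interferon most tightly, fell in both lines. Its values were 6.62, 6.59 and 6.68 in A375 with DMSO and 5.92, 6.46 and 6.3 with vemurafenib. In A2058 they were 7.5, 7.19 and 7.51 with DMSO and 6.76, 6.73 and 6.77 with vemurafenib. The order of levels, A2058 DMSO, A2058 vemurafenib, A375 DMSO and A375 vemurafenib, had no overlap between neighbours. The change was -0.41 ± 0.12 in A375 (limma, adjusted p = 0.0149) and -0.65 ± 0.12 in A2058 (adjusted p = 0.00097). Without replicate 1 of A375 with vemurafenib, the lowest IFNAR2 array, the fall in A375 was -0.25 ± 0.084 (adjusted p = 0.0287). The A375 fall missed the threshold without A375 DMSO replicate 3 (-0.38, adjusted p = 0.0525). The responses were not called different (0.24 ± 0.17, adjusted p = 0.349), but they were without replicate 1 of A375 with vemurafenib (0.4, adjusted p = 0.0145).

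IFNAR1, the other chain of that receptor, was not called in either line. Its values ran from 8.32 to 8.4 in A375 with DMSO, from 8.14 to 8.57 in A375 with vemurafenib, from 8.44 to 8.64 in A2058 with DMSO and from 8.55 to 8.68 in A2058 with vemurafenib, and every pair of neighbours in the order of levels overlapped. The change was 0.06 ± 0.097 in A375 (limma, adjusted p = 0.722, 95% interval -0.15 to 0.27) and 0.08 ± 0.097 in A2058 (adjusted p = 0.692, 95% interval -0.13 to 0.29). Replicate 1 of A375 with vemurafenib, at 8.14, was the lowest of all 12 arrays; without it the A375 change was 0.2 and passed (adjusted p = 0.013).

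IFNGR1, the ligand-binding chain of the gamma receptor, rose in A2058. Its values there were 6.83, 6.76 and 6.84 with DMSO and 7.26, 7.25 and 7.13 with vemurafenib, with no overlap. In A375 they were 6.81, 6.82 and 6.84 with DMSO and 6.73, 6.82 and 6.97 with vemurafenib, which overlap each other and the A2058 DMSO arrays. The change was 0.4 ± 0.059 in A2058 (limma, adjusted p = 0.000219) and 0.02 ± 0.059 in A375 (adjusted p = 0.879, 95% interval -0.11 to 0.15). The difference of responses was -0.38 ± 0.084 (adjusted p = 0.00377).

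Tested directly, the response differed between the lines for 6 of the 8 genes, 75% of them, where 29.5% of all genes were called (13.1% higher and 16.4% lower in A375). It was higher in A375 for the regulatory factors IRF1, IRF7 and IRF9 and higher in A2058 for IFNGR1, JAK1 and JAK2. These comparisons use the same 12 arrays as the responses themselves and add no separate evidence on them.

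The lines were also compared at each treatment. Any difference in handling between the arrays of the lines could not be told apart from a line difference here. With DMSO 3 of the 8 genes were called (37.5%, where 46.4% of all genes were called, 23.9% higher in A375 and 22.5% lower): IRF1 was 2.07-fold and JAK1 1.47-fold higher in A375, and IFNAR2 1.7-fold higher in A2058. The adjusted p (limma) was 6.38e-07 for IRF1, 1.31e-06 for JAK1 and 0.000107 for IFNAR2. IRF7 and IRF9 were at nearly the same level in the DMSO groups, with differences of 0 ± 0.11 (95% interval -0.25 to 0.25) and 0.05 ± 0.042 (-0.04 to 0.14). IFNAR1, at -0.17 ± 0.097, was not called (adjusted p = 0.198) although all A375 arrays lay below all A2058 arrays; it is 1 of 4 members with no overlap between the lines here, where 56.8% of all genes had none, and it passed without replicate 1 of A375 with vemurafenib (adjusted p = 0.0161).

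With vemurafenib 7 of the 8 genes were called between the lines (87.5%, where 46.9% of all genes were called, 22.7% higher in A375 and 24.2% lower). The same 7 had no overlap between the lines, against 51.2% of all genes. IRF1 was 2.96-fold, IRF9 2.63-fold, IRF7 1.97-fold and JAK1 1.19-fold higher in A375. IFNAR2 was 1.44-fold, JAK2 1.35-fold and IFNGR1 1.29-fold higher in A2058. The adjusted p (limma) ran from 2.41e-11 for IRF9 to 0.00215 for IFNAR2. The gene not called was IFNAR1 (-0.18 ± 0.097, adjusted p = 0.151). Without replicate 1 of A375 with vemurafenib its difference was -0.04 ± 0.058 (limma, adjusted p = 0.57).

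**Figure D3:**
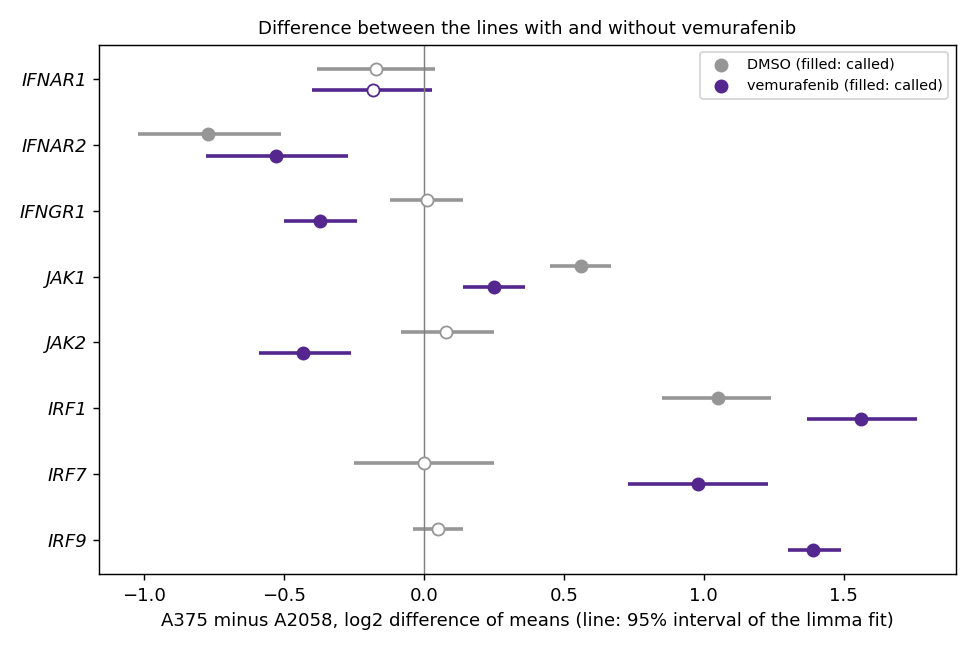
Difference between the lines (horizontal axis, A375 minus A2058, log2 difference of means of 3 arrays each) with DMSO and with vemurafenib, with 95% intervals of the limma fit; filled points passed an adjusted p of 0.05. IRF7 and IRF9 lie near 0 with DMSO and near 1 or above with vemurafenib, and JAK2 and IFNGR1 lie near 0 with DMSO and below it with vemurafenib.

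The other genes of the pathway were taken from lists which, like the members, were chosen with earlier results of these data known. The shares called among either are therefore no independent evidence. The remaining receptor chains moved in different directions. IFNGR2, the second chain of the gamma receptor, fell by 1.32 ± 0.04 on the log2 scale in A375 (limma, adjusted p = 3.75e-11) and by 0.64 ± 0.04 in A2058 (adjusted p = 9.04e-08), and the falls differed (-0.68 ± 0.057, adjusted p = 1.26e-06). IL10RB, a chain shared by the lambda interferon and interleukin receptors, rose by 0.61 ± 0.046 in A375 and by 0.29 ± 0.046 in A2058 (adjusted p = 2.6e-07 and 0.000389). IFNLR1, the specific chain of the lambda receptor, fell in A375 (-0.6 ± 0.088, adjusted p = 0.000118) and was not called in A2058 (-0.18 ± 0.088, adjusted p = 0.164). In RefSeq's gene order on chromosome 21, IFNAR2, IL10RB, IFNAR1 and IFNGR2 stand in a row. In both lines IFNAR2 and IFNGR2 fell, IL10RB rose and IFNAR1 was not called. RefSeq also lists a readthrough gene, IFNAR2-IL10RB, over the first of these, and whether its transcripts add to either probe set was not tested.

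Of the other kinases, TYK2, which serves IFNAR1, was higher in A375 than in A2058 by 1.23 ± 0.047 with DMSO (limma, adjusted p = 2.89e-10) and by 1.14 ± 0.047 with vemurafenib (adjusted p = 4.64e-10). It rose by 0.23 ± 0.047 in A2058 (adjusted p = 0.00231). Its A375 change of 0.13 ± 0.047 (adjusted p = 0.0382) missed the threshold under several alternatives, with an adjusted p of 0.148 without A375 DMSO replicate 2. JAK3, the kinase of lymphoid cytokine receptors, was not called with vemurafenib in either line (-0.07 ± 0.061 in A375 and -0.08 ± 0.061 in A2058).

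Of the 5 STATs measured, 3 rose and 1 fell in A375 (80% called, where 37% of all genes were) and 3 rose in A2058 (60%, where 27.1% were). STAT3, the main STAT of the IL-6 family, rose by 0.48 ± 0.041 in A375 and 0.58 ± 0.041 in A2058 (limma, adjusted p = 9.87e-07 and 2.77e-07). STAT6, the STAT of IL-4 and IL-13, rose by 0.49 ± 0.047 and 0.46 ± 0.047 (adjusted p = 3e-06 and 9.34e-06). The pair STAT5A and STAT5B, growth hormone and cytokine STATs, differed between the lines. STAT5A rose in A2058 (0.41 ± 0.072) with 0.06 ± 0.072 in A375, and STAT5B fell in A375 (-0.49 ± 0.045) with 0.07 ± 0.045 in A2058; both responses were lower in A375 (adjusted p = 0.0174 and 2.12e-05). STAT4 rose in A375 (0.38 ± 0.078, adjusted p = 0.00164), with -0.01 ± 0.078 in A2058.

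Among the 5 other IRFs measured, 1 rose and 1 fell in each line; these 40% called are close to the 37% of all genes in A375, and 27.1% of all genes were called in A2058. IRF2, which competes with IRF1 for its sites, rose in A375 (0.3 ± 0.06, adjusted p = 0.00132) and fell in A2058 (-0.45 ± 0.06, adjusted p = 9.08e-05), and the limma fit gave a difference of 0.75 ± 0.085 (adjusted p = 2.07e-05). IRF3, the constitutive partner of IRF7, fell in A375 (-0.22 ± 0.053, adjusted p = 0.00479). IRF4, which in pigment cells acts with MITF on the tyrosinase gene, rose by 2.06 ± 0.10 in A2058 (adjusted p = 9.5e-09), with 0.18 ± 0.10 in A375 (adjusted p = 0.198). The mean level of the 7 measured melanocyte lineage markers moved with it, from between 8.55 and 8.62 on the A2058 DMSO arrays to between 9.95 and 9.97 on the treated ones; its part in the IRF4 change was not tested.

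The genes downstream were set beside the signalling genes. The median difference of responses, A375 minus A2058, was 3.96 over 15 targets of ISGF3. It was 0.11 over the 8 members, of which 3 were called higher and 3 lower in A375. Without regard to sign, the median size was 0.45 over the members and 3.96 over the targets, with 0.118 over all genes. Of these targets all 15 rose in A375 (17.7% of all genes rose), with a median of 3.93 and the largest rises in IFIT1 (6 ± 0.057) and XAF1 (5.19 ± 0.04). In A2058, where IRF9 also rose, 5 of the 15 rose and none fell, with a median of 0.06. These are 33.3% of the targets, where 14.6% of all genes rose and 27.1% were called in either direction. Over the alternatives 4 to 6 rose and 0 to 2 fell there, the falls being RSAD2 (-0.15, adjusted p = 0.0498 without replicate 1 of A375 with vemurafenib) and, with array weights, OAS3 as well. The 5 that rose were IFI6 (0.6 ± 0.038), MX1 (0.4 ± 0.053), IFIT3 (0.32 ± 0.075), IFIT1 (0.28 ± 0.057) and IFIT2 (0.26 ± 0.07), and for all 15 the response was called higher in A375. The IFIT2 rise missed the threshold without A2058 DMSO replicate 1 or 3 (adjusted p = 0.0507 and 0.0598). Some of these targets were known from earlier results on these data to rise in A375, so their count there is no independent evidence. Without replicate 1 of A375 with vemurafenib, all 15 rose in A375 as well.

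Of 9 measured genes listed as targets of the GAS route, 5 rose and 1 fell in A375, with a median of 0.57. In A2058, 1 rose and 4 fell, with a median of -0.2. That is 66.7% called in A375, where 37% of all genes were, and 55.6% in A2058, where 27.1% were. The A2058 counts ran from 0 to 2 rising and from 3 to 5 falling over the alternatives. The 1 rise, of the peptide transporter TAP1 (0.15 ± 0.043), was lost under 5 of them, among them without A2058 DMSO replicate 1 or 3 or A2058 vemurafenib replicate 1 or 2. The fall of CIITA, the activator of MHC class II genes (-0.21 ± 0.067), was lost under 6, among them without A2058 DMSO replicate 1 or 2 or A2058 vemurafenib replicate 1 or 2. The chemokine CXCL10 (2.71 ± 0.094) and the tryptophan-degrading enzyme IDO1 (2.38 ± 0.20) rose most in A375. Whether they rose through the GAS route or through ISGF3 was not tested. In A2058 the guanylate-binding protein GBP2 (-1.23 ± 0.095) and the adhesion molecule ICAM1 (-0.75 ± 0.043) fell most. ICAM1 fell in A375 too (-0.28 ± 0.043), and GBP2 (-0.17 ± 0.095), SOCS1 (0.08) and CXCL9 (0.05) were not called there. With DMSO, CXCL10 was already higher in A375 than in A2058 by 3.99 ± 0.094 and ICAM1 by 2.25 ± 0.043 (limma, adjusted p = 3.34e-12 and 4.08e-13).

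No interferon ligand gene was called. Of 21 listed, 16 were measured, and limma called none in A375 or A2058; none had an unadjusted p under 0.05 in either line, and none was called in these comparisons under any alternative run. Their changes ran from -0.05 to 0.14 in A375 and from -0.06 to 0.08 in A2058, at levels from 3.76 to 7.9. The lowest of these levels lies below the array lower quartiles of 4.37 to 4.41, where a change may go unseen. The labels give only 72 h, so changes at other times were not measured. Probes of the interferon alpha genes can be shared within that family.

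Negative regulators moved in both directions. In A375, 7 of 16 rose (17.7% of all genes did) and 5 fell (19.3%), with 4 to 7 rising and 4 to 5 falling over the alternatives. They were led by USP18, an ISG15 protease that binds IFNAR2 and dampens type I signalling (3.27 ± 0.067), and SOCS6, a SOCS family member (-1.28 ± 0.06). In A2058, 4 rose (14.6% of all genes did) and 3 fell (12.5%), with 2 to 6 rising and 2 to 4 falling over the alternatives. The rise of CISH, a SOCS family member (0.21 ± 0.068), was lost under 8 of them, including without any 1 of the A2058 vemurafenib arrays, and that of SOCS3 (0.26 ± 0.067) without A2058 vemurafenib replicate 2. The A2058 changes were led by SOCS2, which limits growth hormone signalling (0.62 ± 0.066), and PIAS3, an inhibitor of STAT3 (-0.4 ± 0.062). USP18 was lower in treated A2058 by a small amount (-0.2 ± 0.067, adjusted p = 0.0423), a call lost under 12 alternatives, including without A2058 vemurafenib replicate 3 (adjusted p = 0.158), and SOCS6 rose there (0.25 ± 0.06, adjusted p = 0.00645).

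Other cytokine receptors that use these kinases changed without a common direction. Of 13 measured, 3 rose and 5 fell in A375 (61.5% called, where 37% of all genes were), led by the leukaemia inhibitory factor receptor LIFR (-2.12 ± 0.12) and the interleukin-7 receptor IL7R (1.91 ± 0.092). In A2058, 1 rose and 4 fell (38.5% called, where 27.1% of all genes were), with 1 to 4 rising and 3 to 5 falling over the alternatives; array weights added rises of IL13RA1, EPOR and IL10RA. The interleukin-6 receptor IL6R rose by 1.02 ± 0.056, and the oncostatin M receptor OSMR had the largest fall (-0.89 ± 0.076). IL6R also rose in A375 (1.51 ± 0.056).

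**Figure D4:**
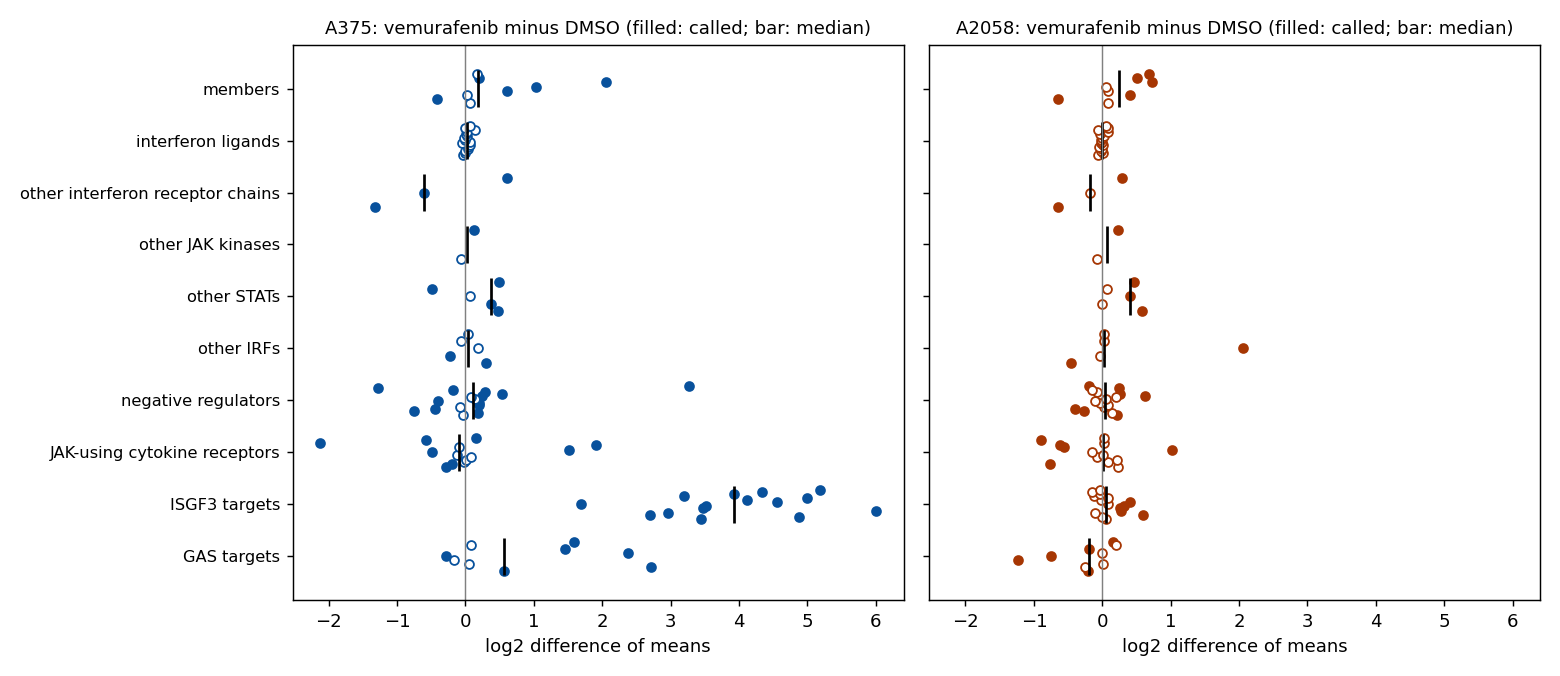
Change with vemurafenib (horizontal axis, log2 difference of means of 3 arrays each) of each gene in the 8 measured members and 9 pathway lists, in A375 and in A2058; filled points passed an adjusted p of 0.05 in the limma fit and bars are list medians. The ISGF3 targets lie between 1.69 and 6 in A375 and between -0.15 and 0.6 in A2058, while the ligand genes lie near 0 in both.

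The genes most like each member over the 12 arrays, by Pearson r among genes with an SD of at least 0.25, were as follows. The arrays fall into 4 groups and share lines and treatments, so these values describe a shared pattern of groups. IRF9 was most like SAMD9 (0.994), ANKFY1 (0.993) and OLFML2B (0.992). IRF7 was most like COL22A1 (0.977), WDR38 (0.976) and CPA4 (0.97), and IRF1 was most like TMEM47 (0.991), JMJD8 (0.99) and MTG2 (0.99). JAK1 was nearest to L1CAM (0.986), OPTN (0.984) and FBN1 (0.977), and JAK2 to ATG14 (0.978), ST6GAL1 (0.978) and PPIP5K2 (0.97). IFNAR2 followed CDC6 (0.986), UGP2 (0.978) and NUP54 (0.978), and IFNGR1 followed CNTN1 (0.963), C21orf91 (0.961) and POLB (0.959). IFNAR1 reached 0.901 with SNORD75, 0.875 with LMBRD2 and 0.863 with DLG1.

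Markers of other cell types were measured as a check on the samples. The mean over 7 blood and immune markers was 5.08 to 5.1 on the A375 DMSO arrays and 4.92 to 4.94 on the treated ones, and 4.94 to 4.98 with DMSO and 4.65 to 4.68 with vemurafenib in A2058. LYZ carried that shift, from 7.83 to 6.56 in A375 and from 6.91 to 4.79 in A2058, while the group means of the other 6 markers moved by little, PTPRC from 4.17 to 4.17 and CD14 from 5.32 to 5.41 in A375. The mean of 4 markers of plasmacytoid dendritic cells, which have high IRF7, was 5.06 to 5.21 with DMSO and 5.65 to 5.67 with vemurafenib in A375. Its defining gene CLEC4C stood at 4.39 and 4.4, and TCF4, which many cell types express, moved from 6.77 to 8.81. The mean over 5 fibroblast markers was 5.07 to 5.18 with DMSO and 5.62 to 5.72 with vemurafenib in A375. LUM moved from 4.22 to 6.37 there, and COL1A1 stood at 6.2 and 6.18 and COL3A1 at 4.98 in both groups. The mean over 5 epithelial markers was 6.21 to 6.28 with DMSO and 5.69 to 5.91 with vemurafenib in A375, and 5.88 to 5.92 and 5.49 to 5.58 in A2058, with KRT18 moving from 10.26 to 8.48 in A375. The mean over 4 endothelial markers lay between 4.82 and 5.34 on all 12 arrays. The part of these marker genes in the results was not tested.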

How the data were processed

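Total RNA of 12 samples was amplified (Ambion WT Expression kit), labelled and hybridised to Affymetrix arrays, per the labels' protocols. The authors deposited 32321 log2 expression values for each array, 1 per probe set. The submitters' processing notes name R 3.0.1 and affy. How background was corrected, how probes were summarised and which genome build was used is not given in the sources used here. A log2 scale, normalized between arrays, was read from the values, so no further scaling was applied. Normalization of this kind removes a change shared by all genes. Array values have no read depth; precision is limited by the number of arrays.

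Of the probe sets, 19158 have 1 symbol in the platform annotation, 1388 several and 11775 none; names were updated through Entrez numbers with RefSeq GRCh38.p14 (19128 matched). The probe set with the highest mean was kept for the 637 genes with several, leaving 18404 genes. All 12 arrays entered 1 limma 3.58.1 model (R 4.3.3, lmFit and eBayes, 4 group means, 8 residual and 3.98 prior degrees of freedom), with two-sided tests adjusted over all genes and called at an adjusted p under 0.05. The steps were tested on simulated data. The members, the pathway lists and the rule for named genes (all members, the listed receptor chains, kinases, STATs and IRFs, and the 2 called genes of each other list with the largest change in a comparison, with exceptions of 5 or fewer) were chosen with earlier results of these data known. The 3 other ISGF3 targets named for A2058 do not fall under that exception and were named as the remaining called genes of that list. Genes of these lists named because a call changed under an alternative were chosen after their values were seen. Replicate numbers were taken as names only, because same-numbered arrays did not deviate together.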

Additional observations from a re-analysis of the deposited data

Results flagged for a closer look

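The response to vemurafenib differed between the lines, by the test of the difference itself, for 6 of the 8 genes. That is 75% of them, where 29.5% of all genes were called. The differences, A375 minus A2058 on the log2 scale, were 1.35 for IRF9, 0.97 for IRF7 and 0.52 for IRF1. They were -0.38 for IFNGR1, -0.31 for JAK1 and -0.51 for JAK2. Adjusted p-values from limma ran from 3.45e-09 for IRF9 to 0.00783 for IRF1, over 3 arrays per group. All 3 treated arrays lay above all 3 DMSO arrays in both lines for IRF9 and JAK1, in A375 for IRF1 and IRF7, and in A2058 for IFNGR1 and JAK2. Over all genes, 43.6% in A375 and 40.6% in A2058 had no overlap, in either direction.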

How the results depend on the processing

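The 40 member results (8 genes in 5 comparisons) were recomputed under 22 alternatives where each could be fitted, 12 of which leave out 1 array. None of them reversed a called change, and the counts of called members, of other pathway genes over all lists and of all genes stayed within 1.5 times of the reported ones. Without 1 array, 4 to 7 members were called in A375, 5 in A2058, 6 to 7 for the difference of responses, 3 to 4 between the lines with DMSO and 7 with vemurafenib. Over all 18404 genes the same fits called 6044 to 7785 in A375, 4172 to 5952 in A2058 and 4892 to 6638 for the difference. Between the lines they called 7826 to 9361 with DMSO and 8013 to 9679 with vemurafenib. The member call lost was IFNAR2 in A375, without A375 DMSO replicate 3 (limma, adjusted p = 0.0525). Calls gained without replicate 1 of A375 with vemurafenib were IFNAR1 and JAK2 in A375, the IFNAR2 difference of responses and the IFNAR1 difference with DMSO; array weights gained the same 4, and a fit of the DMSO groups alone gained the IFNAR1 difference (adjusted p = 0.028). JAK2 lay below the filter that kept genes above the median level, so it was not tested there. With the replicate number as a block, across both lines or within each line, 5 members were called in A375, 5 in A2058 and 6 for the difference, as without it. Over all genes, the block across both lines called 6605 in A375, 4763 in A2058 and 5160 for the difference. The block within each line called 6431, 4522 and 4934. Same-numbered DMSO and vemurafenib arrays had correlations of deviations from -0.199 to 0.1, so the numbers were not used as pairs. Quantile normalization and median centring shifted the median of all genes by no more than the -0.0172 that centring gave in A375. Signal near the array median limits what can be said of small changes in JAK2.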
